A study of Mus musculus with 6 samples.

Results

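The developmental pluripotency associated genes *Dppa1*, *Dppa2*, *Dppa3*, *Dppa4* and *Dppa5a* were taken by symbol from the count tables, and these 5 are the members described here, of 24393 features in each table. They were picked because of their difference between *HOXA13* and control libraries, above all because *Dppa1* goes from 1 count over the control libraries to between 320 and 617 counts in each *HOXA13* library. Their levels and fold changes in that comparison are therefore given as a description, with no p-value. Where the side of the threshold on which a member fell in the fit over all genes is mentioned, that too describes the choice of members and supports nothing.

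KH2 cells are mouse embryonic stem cells (mESC) that carry a landing site for a transgene, into which FLPe recombinase places a construct whose expression is driven by doxycycline. In the *HOXA13* group this construct is FLAG-tagged human *HOXA13*, a homeobox transcription factor, and the control group is given as the genotype CONTROL. Both groups are labelled as strain C57/BL/6 and as embryonic stem cells, were cultured with LIF and serum on irradiated 3T3-Swiss albino fibroblasts, and are stated to have had no treatment, whereas the methods used doxycycline to check targeted clones. RNA was sequenced from 3 control and 3 *HOXA13* cultures. After the check of targeted clones, the methods speak of 3 biological replicates selected per group. Neither the methods nor the labels say outright whether the 3 of a group are separate clones, so p-values measure the spread between these cultures.

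The Dppa genes share a name and not a sequence family, since they were grouped by expression in pluripotent cells and the early embryo together with *Pou5f1*. *Dppa2* and *Dppa4* encode related SAP-domain proteins that bind chromatin as a pair and are known for keeping bivalent promoters open and for switching on genes of the 2-cell-stage embryo. *Dppa3* (*Stella*) encodes a maternal and germ cell protein that displaces Uhrf1 from chromatin and so limits maintenance of DNA methylation, and *Dppa5a* (*Esg1*) encodes a KH-domain RNA-binding protein. The function of *Dppa1* is poorly known.

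The 250 bases before the start of *Dppa1* are shown because *Dppa1* is the member that is all but silent in one group and expressed in the other. RefSeq promoter sequences for GRCm38.p6 matched 1 of the 5 members. The window of 300 bases around the start lies on the minus strand at chr11:46629225-46629524, of which the upstream part is printed 5′ to 3′ with its CpG in capitals.
*Dppa1* upstream: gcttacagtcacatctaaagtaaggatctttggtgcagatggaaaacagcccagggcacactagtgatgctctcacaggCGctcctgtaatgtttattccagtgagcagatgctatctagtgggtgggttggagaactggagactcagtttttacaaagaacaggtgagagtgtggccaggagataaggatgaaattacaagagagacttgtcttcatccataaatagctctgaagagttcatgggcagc
The same 250 bases stand in build NCBIM37 (mm9), the build of the counts, at chr11:46442777-46443026 with 100% identity. The window of 300 bases has a GC content of 45.7% and holds 1 CpG, 171 bases before the start, where the median over 32851 RefSeq promoters is 7 and 14.1% of them hold 1 or none. On both strands it holds none of the HOX13-type motifs CAATAAA, found in 4.60% of all promoters, and TCGTAAA, found in 0.597%, and not the octamer ATGCAAAT of Pou5f1 and its relatives, found in 1.74%. That says only that these letters are not in this window.

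The libraries held 14608681 to 21766589 counts in the control group and 13494135 to 20374341 in the *HOXA13* group. Levels are given in CPM, that is counts divided by library sizes which TMM normalization has corrected for differences in make-up. The level that 3 counts stand for, used as the floor, lies between 0.134 and 0.227 CPM and covers counting error only. The targeted gene was checked by its human identifier, ENSG00000106031, which had 6, 0 and 0 counts in control libraries and 4298, 4177 and 2881 in *HOXA13* libraries. After a filter on low counts, 13846 genes were tested with edgeR's quasi-likelihood test, and an adjusted p under 0.05 (Benjamini-Hochberg over all of them) was the threshold. Of these, 3836 (27.7%) passed it, 1994 (14.4%) higher and 1842 (13.3%) lower in *HOXA13* libraries, and with library size alone in place of TMM the split was 1576 higher and 2500 lower. Without *HOXA13* replicate 1, 2 or 3 the number was 2038, 2104 or 2311. The median log2 fold change was 0.00 over all tested genes and -0.07 with library size alone.

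All 5 Dppa genes passed the filter, *Dppa1* only through the *HOXA13* libraries. 4 of the 5, *Dppa1*, *Dppa2*, *Dppa3* and *Dppa4*, passed the threshold, all higher in *HOXA13* libraries, beside 14.4% of all tested genes, and the same 4 had groups that did not overlap, beside 23.5% of all tested genes. Since the members were chosen on this contrast, nothing is read from these counts. In bulk RNA, fewer cells of a type and less RNA per cell cannot be told apart.

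The *Dppa1* counts were 1, 0 and 0 under control conditions and 617, 469 and 320 with *HOXA13*. In the *HOXA13* libraries that is 31.3, 25.8 and 24.2 CPM, with a mean of 27.1 ± 3.74 CPM (SD, n = 3). All control libraries are thus at or under the floor and all *HOXA13* libraries far above it. The mean level in *HOXA13* libraries was 166 times the mean floor of the control libraries. The gene lies at chr11:46421274-46442763 on the minus strand (NCBIM37) with 2 annotated transcripts, and no other annotated gene overlaps it. Among all 24393 features, only *Dppa1* and *Klk15* (0.0082%) had at most 3 counts in every control library and at least 100 in every *HOXA13* library, and no feature showed the reverse. *Klk15*, a kallikrein-related serine protease gene, had 1, 0 and 0 counts in control and 136, 168 and 100 in *HOXA13* libraries. Both results depend on these cut-offs. *Acsm3* had 1, 0 and 0 counts in control and 117, 120 and 73 in *HOXA13* libraries, short of 100 in *HOXA13* replicate 3. The other way, *Fgf8* had 961, 43 and 365 counts in control and 1, 1 and 0 in *HOXA13* libraries.

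*Dppa4* and *Dppa2*, the interacting pair, lie next to each other on the plus strand of chromosome 16, at chr16:48283848-48294405 and chr16:48310590-48319836, with 16.2 kb between them. *Dppa4* stood at 51.9, 67.2 and 65.1 CPM in control libraries and at 104.2, 106.1 and 104.3 CPM in *HOXA13* libraries. *Dppa2* stood at 36.8, 43.2 and 37.0 CPM in control libraries and at 58.5, 56.1 and 54.0 CPM in *HOXA13* libraries. Every *HOXA13* library is above every control library for both genes, by a margin of 1.55 times for *Dppa4* and 1.25 times for *Dppa2* between the lowest *HOXA13* and the highest control library. The mean went from 61.4 ± 8.28 to 104.9 ± 1.07 CPM for *Dppa4* (SD, n = 3), a log2 fold change of 0.77 with a standard error (SE) of 0.10. For *Dppa2* it went from 39.0 ± 3.66 to 56.2 ± 2.25 CPM (SD, n = 3), a log2 fold change of 0.53 with an SE of 0.09. The ratio of *Dppa4* to *Dppa2* CPM was 1.41, 1.56 and 1.76 in control libraries and 1.78, 1.89 and 1.93 in *HOXA13* libraries, so the groups are apart by a narrow gap.

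*Dppa3*, at chr6:122576428-122580290 on the plus strand, stood at 36.1, 34.2 and 46.6 CPM in control libraries and at 93.0, 86.5 and 83.3 CPM in *HOXA13* libraries. Control replicate 3 is the highest control library, and the lowest *HOXA13* library is still 1.79 times higher. The mean went from 38.9 ± 6.70 to 87.6 ± 4.93 CPM (SD, n = 3), which is 2.25-fold, with a log2 fold change of 1.17 and an SE of 0.12.

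*Dppa5a*, at chr9:78214859-78215984 on the minus strand, is the most abundant member and the one whose groups overlap. It stood at 224.0, 225.7 and 299.8 CPM in control libraries and at 291.4, 297.2 and 296.8 CPM in *HOXA13* libraries. Control replicate 3 is above all *HOXA13* libraries, while the other two control libraries are below them. The mean went from 249.9 ± 43.3 to 295.1 ± 3.27 CPM (SD, n = 3), a log2 fold change of 0.24 with an SE of 0.11, and *Dppa5a* did not pass the threshold. Without control replicate 3 its log2 fold change was 0.39 and it passed.

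**Figure D1:**
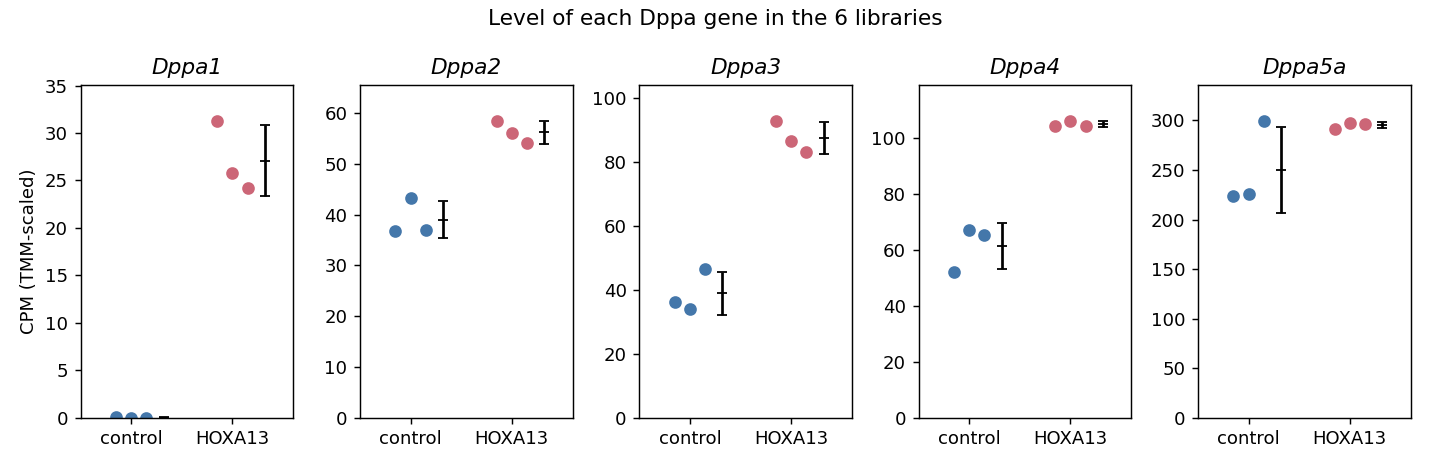
Level of each Dppa gene in CPM after TMM normalization, with 1 point per library and the mean ± SD of the 3 control and 3 *HOXA13* libraries. *Dppa1* is near 0 in all control libraries and at 24.2 to 31.3 CPM in *HOXA13* libraries, *Dppa2*, *Dppa3* and *Dppa4* have groups that do not overlap, and *Dppa5a* has 1 control library above all *HOXA13* libraries.

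The *HOXA13* libraries lay closer together than the control libraries for the 4 members that were expressed in both groups. The coefficient of variation (SD over mean) was 9.39% in control and 4.0% in *HOXA13* libraries for *Dppa2*, and 17.2% and 5.63% for *Dppa3*. For *Dppa4* it was 13.5% and 1.02%, and for *Dppa5a* 17.3% and 1.11%. Spread between replicates was wider in the control group over all genes too. The chi-square of counts per degree of freedom between pairs of replicates, which is 1 for counting noise alone, was 12.7 to 34.2 between control libraries and 1.89 to 6.03 between *HOXA13* libraries. Control replicate 3 has the highest *Dppa3* and *Dppa5a* of its group, and control replicate 2 the highest *Dppa2* and *Dppa4*. Summed over the members, levels were 348.8, 370.2 and 448.5 CPM in control libraries and 578.4, 571.7 and 562.7 CPM in *HOXA13* libraries.

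Levels of different genes were compared per kb of exon. In control libraries the order was *Dppa5a* at 403.6 CPM per kb, *Dppa3* at 43.7, *Dppa4* at 40.0, *Dppa2* at 18.9 to 22.2 and *Dppa1* below the floor, and the libraries of the neighbours *Dppa3* and *Dppa4* overlapped. In *HOXA13* libraries it was *Dppa5a* at 476.8 CPM per kb, *Dppa3* at 98.2, *Dppa4* at 68.4, *Dppa2* at 28.8 and *Dppa1* at 17.2, with no overlap between neighbours. *Dppa1* therefore went from below the floor to a level per kb above that of 71.6% of the 13469 tested genes with a known length, still the lowest of the members. *Dppa3* moved from above 89.1% of those genes to above 96.0%, *Dppa4* from 87.8% to 93.4%, *Dppa2* from 75.5% to 82.3%, and *Dppa5a* stayed above 99.7%.

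**Figure D2:**
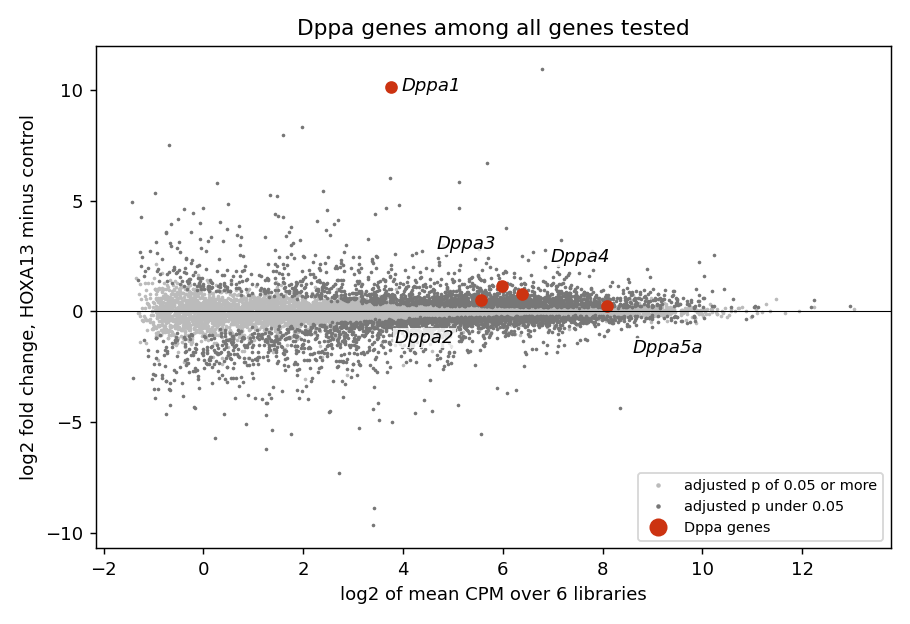
Log2 fold change (*HOXA13* over control) against mean level in log2 CPM for all 13846 tested genes, each a point, dark grey where it passed the threshold and light grey where it did not, with the 5 Dppa genes in red. The value of *Dppa1* depends on the prior count. *Dppa1* has the second-highest log2 fold change, while *Dppa2*, *Dppa3*, *Dppa4* and *Dppa5a* lie at 0.24 to 1.17, inside the range that many other genes cover.

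Near-identical copies elsewhere in the genome can raise or lower these counts, depending on how reads with several places were counted. Of the windows of 75 bases (the read length) along the *Dppa1* transcript, 0% have an exact copy elsewhere in NCBIM37. The share is 6.98% for *Dppa3*, 28.2% for *Dppa4*, 42.5% for *Dppa2* and 48.1% for *Dppa5a*, whose transcript has 9 other loci of at least 90% identity. How reads with several places were counted is not given in the sources used here, so the levels of *Dppa2*, *Dppa4* and *Dppa5a*, and any order that rests on them, are uncertain, while *Dppa1* is free of this limit.

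The genes around the members were looked at to see whether a member moved with its surroundings. The 5 nearest features on each side of the members make up 40 features, of which 22 were tested, 4 passed the threshold higher and 3 lower, and 15 had at most 3 counts in every library. Around *Dppa1*, 3 of the 10 neighbours could be tested. None of the 3 tested neighbours passed the threshold in edgeR's test, 0 had an unadjusted p under 0.05, and DESeq2 and limma-voom called 0. They are *Med7* (log2 fold change -0.08, adjusted p = 0.602), *Havcr2* (-0.30, adjusted p = 0.635) and *Sgcd* (0.03, adjusted p = 0.931). On its 2 sides, the nearest features are *BC053393*, 18.5 kb away with 0, 0 and 0 counts in control and 18, 8 and 4 in *HOXA13* libraries, and *Gm4926*, 7.25 kb away with 1 count in all. *BC053393*, which was too low to be tested, was thus above the floor in every *HOXA13* library and at 0 in every control library. Another untested neighbour, *Gm12169*, had 0, 1 and 0 counts in control and 6, 2 and 1 in *HOXA13* libraries.

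Next to *Dppa2*, *Morc1*, which encodes a germline protein that silences transposons, rose from 27.2 ± 8.01 to 50.3 ± 4.15 CPM (SD, n = 3), with a log2 fold change of 0.88 (SE 0.19, adjusted p = 0.0125 by edgeR). It lies 111.5 kb from *Dppa2*, and without *HOXA13* replicate 1 its adjusted p was 0.0683. *Pvrl3*, a cell adhesion gene 1785 kb from *Dppa4*, fell by 0.50 on the log2 scale (adjusted p = 0.00277). *Gm4737*, 2129 kb from *Dppa4*, fell by 0.42 (adjusted p = 0.0106), a call lost without *HOXA13* replicate 1 or 2.

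*Dppa3* lies in a stretch of chromosome 6 known for genes active in pluripotent cells. *Nanog*, a core pluripotency factor 77.2 kb away, rose from 318.3 ± 26.6 to 472.1 ± 0.83 CPM (SD, n = 3), a log2 fold change of 0.57 (SE 0.07, adjusted p = 0.000951). *Slc2a3*, a glucose transporter gene 97.5 kb away, rose by 0.99 on the log2 scale (SE 0.22, adjusted p = 0.0115), with a wide spread in control libraries (925.6 ± 343.5 CPM, SD, n = 3), and lost the call without *HOXA13* replicate 1 (adjusted p = 0.0603). *Rimklb*, 140.1 kb away, went the other way and fell by 1.35 (SE 0.12, adjusted p = 0.000219). The nearest neighbour *Gdf3*, a TGF-beta family ligand 16.3 kb away, had a log2 fold change of -0.50 (SE 0.20, adjusted p = 0.103). It passed the threshold with DESeq2 (adjusted p = 0.0349) and without control replicate 1 (adjusted p = 0.0361), and its log2 fold change was -0.20 without control replicate 2. Neighbours of *Dppa3* thus moved in both directions.

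Beside *Dppa5a*, the nearest gene *Ooep*, a related KH-domain gene of the oocyte 7.93 kb away, had a log2 fold change of 0.14 (SE 0.09, adjusted p = 0.300), and *Gsta2* on the other side had 1 count in all. *Eef1a1*, the translation elongation factor 110.3 kb away, rose by 0.21 (SE 0.06, adjusted p = 0.0329), a call that was lost in 5 alternatives. Over the chromosomes that carry members, the median log2 fold change of all tested genes was -0.12 on chromosome 11, -0.01 on 16, 0.02 on 6 and 0.02 on 9. Chromosome 1, which carries none, had a median of 0.38.

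**Figure D3:**
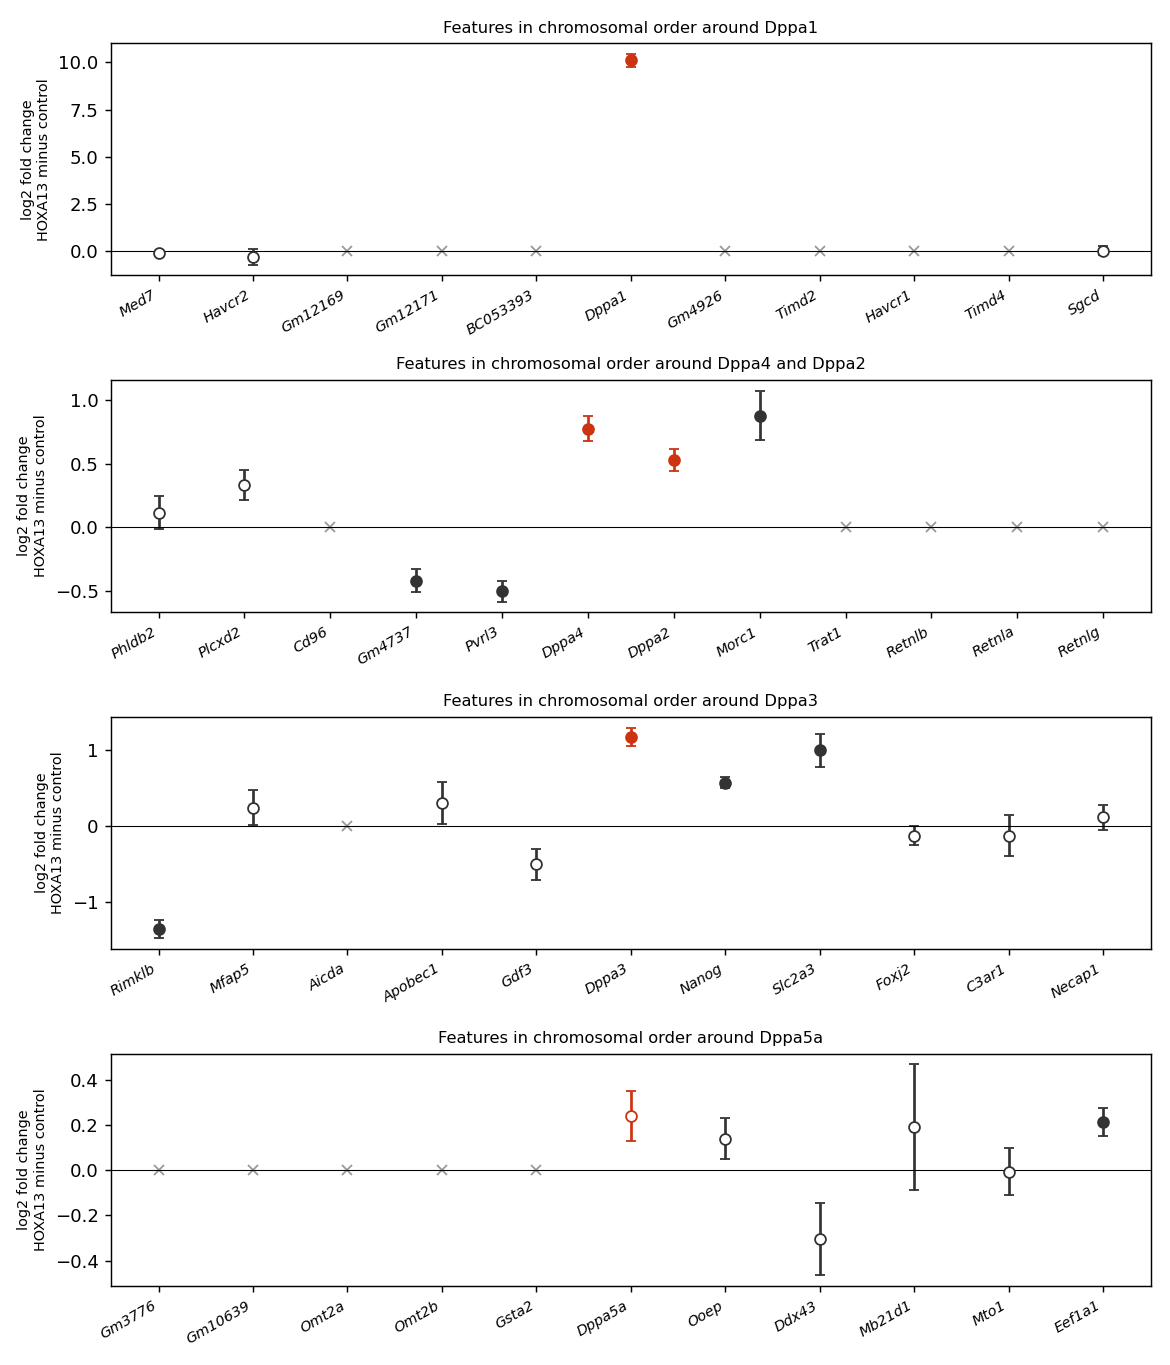
Log2 fold change (*HOXA13* over control, with SE bars) of the 5 nearest features on each side of each Dppa gene. Filled points passed the threshold, open points did not, crosses were not tested and are drawn at 0, and the Dppa genes are in red. Of the neighbours of *Dppa1*, 3 were tested and none passed, while those of *Dppa3* include *Nanog* and *Slc2a3* higher and *Rimklb* lower.

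Genes of the pathways in which the Dppa proteins work were compared as lists. For the DNA methylation machinery around *Dppa3*, 2 of 13 genes rose and 4 fell, with a median log2 fold change of -0.02. *Uhrf1*, the factor that Dppa3 displaces, rose from 270.4 ± 18.3 to 426.3 ± 6.34 CPM (SD, n = 3), a log2 fold change of 0.66 (SE 0.07, adjusted p = 0.000348). *Tet2*, a dioxygenase that oxidizes methylcytosine, rose by 1.64 (SE 0.25, adjusted p = 0.00231), and the de novo methyltransferase gene *Dnmt3a* fell by 1.89 (SE 0.19, adjusted p = 0.000393). *Ehmt1*, a histone methyltransferase gene, fell by 0.52 (adjusted p = 0.00276), and *Dnmt3l*, the cofactor of the de novo enzymes, by 1.02 (adjusted p = 0.00837). The maintenance methyltransferase *Dnmt1* had a log2 fold change of -0.02 (adjusted p = 0.848), and *Tet3*, the oocyte dioxygenase, of -0.12 (adjusted p = 0.559). *Dnmt3b* also passed, lower (log2 fold change -0.59, adjusted p = 0.0491), though its groups overlap and it lost the call in 8 alternatives, with limma-voom, robust estimation and the replicate block among them (adjusted p from 0.0581 to 0.161). *Dnmt3l* lost its call without *HOXA13* replicate 1 (adjusted p = 0.0544). *Dnmt3b* and *Dnmt3l* were named after their values were seen. Without *HOXA13* replicate 1, 2 of the list fell.

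For the COMPASS complexes, the histone H3 methyltransferases with which Dppa2 and Dppa4 associate, 2 of 10 genes rose and 1 fell, with a median of 0.03, and 3 fell with library size alone or without control replicate 2. *Ash2l*, a core subunit, rose by 0.33 (SE 0.06, adjusted p = 0.00624). *Rbbp5*, another, had a log2 fold change of 0.46 (adjusted p = 0.0206, lost in 4 leave-one-out fits), and *Men1*, the menin subunit, of -0.42 (adjusted p = 0.0165, lost without each *HOXA13* replicate). *Kmt2b*, the catalytic subunit of bivalent promoters, had 0.01 (adjusted p = 0.940), a value whose sign changed with library size alone and without control replicate 1 or *HOXA13* replicate 2. Of the 9 listed genes of the KH-domain family and the oocyte complex related to *Dppa5a*, 4 were tested, with a median of -0.12. *Tle6*, a subunit of the maternal complex, rose from 4.77 ± 0.12 to 12.2 ± 1.23 CPM (SD, n = 3), a log2 fold change of 1.36 (SE 0.13, adjusted p = 0.00033), and *Zbed3* fell by 0.50 (adjusted p = 0.00791). *Khdc3*, the KH-domain gene of the same complex, had a log2 fold change of -0.37 (adjusted p = 0.285). *Khdc1a*, another KH-domain gene and too low to be tested, had 0, 1 and 1 counts in control and 6, 5 and 11 in *HOXA13* libraries, above the floor in each of the latter, and was named after its values were seen.

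Genes of the 2-cell-stage program, which DPPA2 and DPPA4 are known to switch on through *Dux*, were at or near 0. Of the 32 listed genes 29 are in the tables, none was tested, 13 had no count in any library and 28 had at most 3 counts in every library. Their counts summed to 28 in all control and 21 in all *HOXA13* libraries. *Dux* had 0 counts in all 6 libraries, *Zscan4d* 4, 1 and 2 in control and 0, 0 and 0 in *HOXA13* libraries, *Zscan4c* 0, 0 and 2 and then 0, 0 and 0, and *Zscan4f* 1, 0 and 0 and then 0, 0 and 0. Others of the list lay the other way, such as *Ubtfl1* with 0, 0 and 0 counts in control and 1, 2 and 1 in *HOXA13* libraries and *Gm13119* with 0, 0 and 0 and then 1, 0 and 2, which were named after their values were seen. Apart from the 4 counts of *Zscan4d* in control replicate 1, none of the genes named here was above the floor. The *Zscan4* genes and *Dux* belong to families of similar copies, so reads can be split or left uncounted, which was not measured here. At this depth a level under the floor could not be shown.

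Of 16 genes restricted to pluripotent cells, 6 rose and 4 fell, with a median log2 fold change of -0.11, and 7 fell without control replicate 1. Besides *Nanog*, *Fbxo15*, an F-box gene regulated by Pou5f1, rose by 1.07 (SE 0.10, adjusted p = 0.000256) and *Trap1a* by 0.85 (adjusted p = 0.000181). The Nodal co-receptor gene *Tdgf1* fell by 1.09 (SE 0.07, adjusted p = 3.03e-05) and *L1td1*, an RNA-binding protein gene, by 0.47 (adjusted p = 0.000778). *Pou5f1* had a log2 fold change of -0.03 (adjusted p = 0.795).

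Markers of other cell types that such cultures can hold were measured too, and their part in the levels of the Dppa genes was not tested. Of 8 primordial germ cell genes, which include the Dppa3-expressing lineage's *Tfap2c* and *Prdm1*, 4 rose and none fell (5 higher and 1 lower at an unadjusted p under 0.05 in edgeR, 4 and 0 with DESeq2 and with limma-voom), with a median of 0.66 and a summed level of 129.8 to 143.7 CPM in control and 340.3 to 344.0 CPM in *HOXA13* libraries. Most of that difference is *Tfap2c*, and the other 7 genes summed to 79.5 to 83.0 CPM in control and 118.2 to 122.5 CPM in *HOXA13* libraries. *Tfap2c*, a transcription factor of germ cell precursors, rose from 53.7 ± 6.11 to 222.6 ± 4.29 CPM (SD, n = 3), a log2 fold change of 2.05 (SE 0.09, adjusted p = 8.21e-06), and the RNA helicase gene *Ddx4* by 0.78 (adjusted p = 0.000442). *Prdm1* rose by 0.69 (adjusted p = 0.00169), and *Nanos3* by 1.09 (adjusted p = 0.0122, lost without *HOXA13* replicate 2 or 3). *Dnd1* had a log2 fold change of -0.43 (adjusted p = 0.0541) and *Sycp3* of -0.34 (adjusted p = 0.186), both with groups that do not overlap. *Dnd1* passed the threshold without control replicate 2 (adjusted p = 0.0117) and with library size alone (adjusted p = 0.0340), and both genes were named after their values were seen. Of 7 embryonic stem cell markers, with a median of 0.06, 3 rose (*Nanog*, *Sall4* and *Sox2*) and 1 fell, *Lin28a* by 1.16 (SE 0.06, adjusted p = 1.71e-05). 1 rose with library size alone and without control replicate 3 or any 1 *HOXA13* replicate, and 2 fell without control replicate 1. Their summed level was 2370 to 2934 CPM in control and 2622 to 2685 CPM in *HOXA13* libraries. These include *Pou5f1*, *Sox2* and *Nanog*, which were well expressed in both groups.

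Of 20 fibroblast genes, which the feeder cells would contribute, none passed edgeR's threshold and 1 was higher and 1 lower at an unadjusted p under 0.05, with a median of 0.13 and a summed level of 14800 to 20818 CPM in control and 18630 to 22509 CPM in *HOXA13* libraries. DESeq2 called 1 of them higher and 1 lower and limma-voom 0, while leaving out control replicate 2 gave 3 higher and leaving out control replicate 1 gave 2 lower. Of 10 primitive endoderm genes 2 rose (*Gata6*, *Sox7*) and 2 fell (*Lama1*, *Pdgfra*), with a median of -0.14. *Sox7* lost its call without any 1 *HOXA13* replicate, *Pdgfra* lost it without control replicate 3 or *HOXA13* replicate 1 or 2, and 4 fell without control replicate 2. Of 10 mesendoderm genes none rose (0 at an unadjusted p under 0.05) and 5 of 8 tested fell, among them *T*, *Fgf8*, *Wnt3* and *Mixl1*, with DESeq2 giving 5 and limma-voom 0 lower genes. It was 10 without control replicate 2, and 2, 3 and 3 without *HOXA13* replicate 1, 2 and 3. The median of -3.44 lies between the log2 fold changes of *Wnt3* and *Eomes*. Their summed level was 40.5, 189.7 and 438.6 CPM in the control libraries, from the lowest to the highest, and 20.5 to 23.8 CPM in *HOXA13* libraries, so this list differed between the groups along with the Dppa genes.

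**Figure D4:**
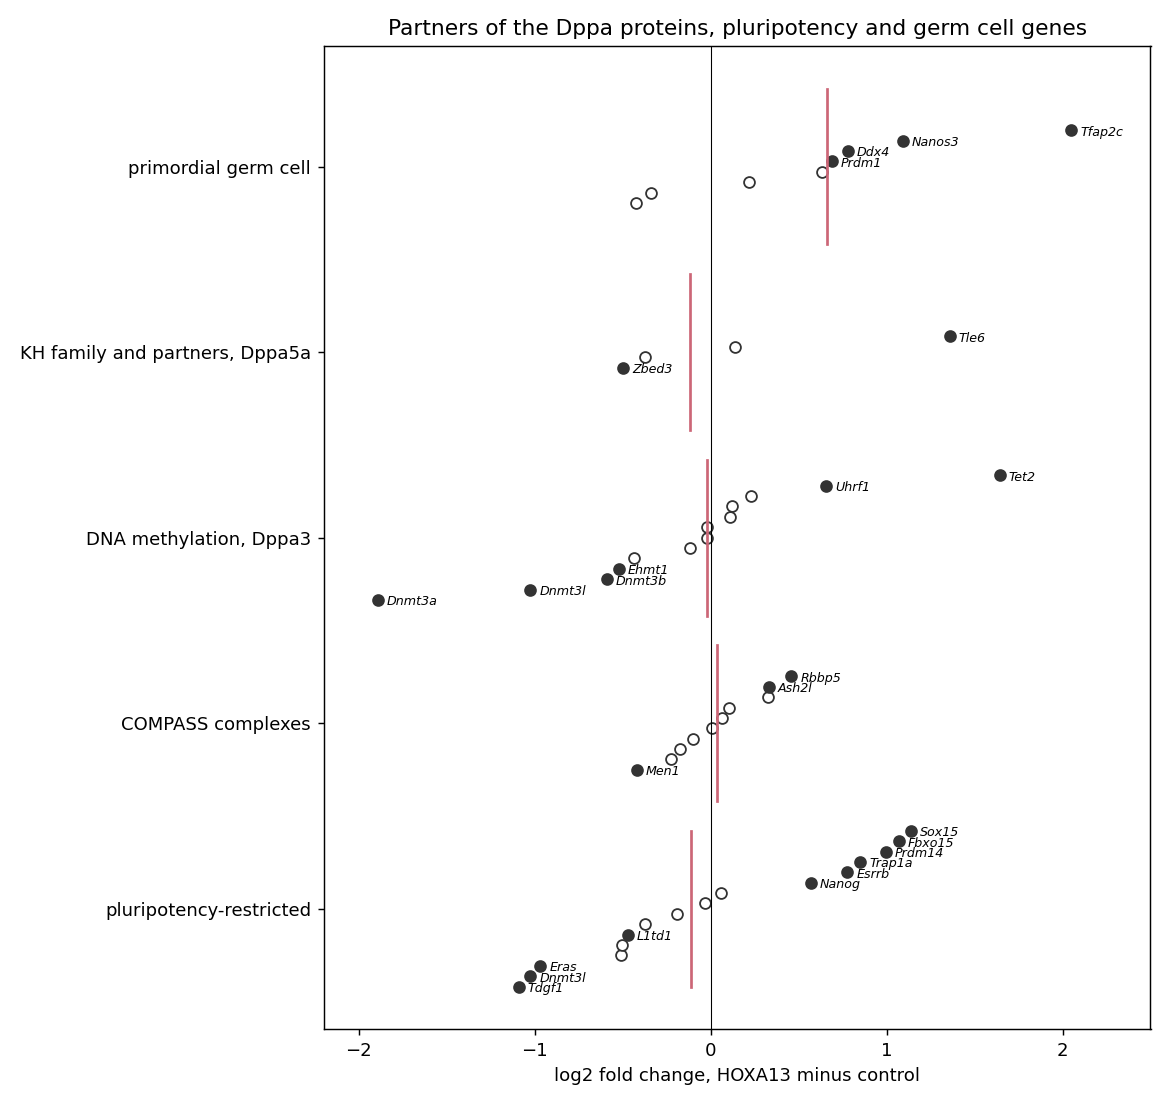
Log2 fold change (*HOXA13* over control) of every tested gene of the pluripotency, COMPASS, DNA methylation, KH-domain and germ cell lists, with 1 point per gene, filled where it passed the threshold, and a red line at the median of each list. The germ cell list has the highest of these medians (0.66), with *Tfap2c* farthest to the right, and every list has genes on both sides of 0.

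To show which genes followed the same pattern, Pearson's r of log2 CPM over the 6 libraries was ranked for each member. The libraries form 2 groups, so r mostly reflects the difference between them and is a description. For *Dppa1* the highest were *Plekhh1*, *F11r* and *Acsm3*, each with r of 1.00 after rounding. *Plekhh1* shares bases with *Pigh* and *Acsm3* with *Eri2*, both of which run in the opposite direction. *Acsm3* had 1 count in all control libraries and 6.02 ± 0.55 CPM (SD, n = 3) in *HOXA13* libraries. For *Dppa2* they were *Ndfip2*, *Rab3gap1* and *Angel2*, for *Dppa3* *Tmem55a*, *C430049B03Rik* and *Clec4a1*, and for *Dppa4* *Cox4i1*, *S100a13* and *Rmi2*. For *Dppa5a* they were *Platr22*, *Tmem158* and *Mapkapk5*, none of which passed the threshold, and *Mapkapk5* overlaps *Adam1a* on the same strand and *Tmem116* on the other, so its counts are uncertain. *F11r*, *Rab3gap1*, *Angel2* and *Platr22* lie on chromosome 1, where 56.1% of the tested genes passed the threshold, against 22.4% to 25.6% on the chromosomes that carry members. An r of at least 0.95 was found for 5.88% of the other genes with *Dppa1*, 6.53% with *Dppa2*, 3.83% with *Dppa3*, 5.50% with *Dppa4* and 0.246% with *Dppa5a*. *Dppa5a* thus had the fewest genes of like pattern.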

How the data were processed

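RNA-seq libraries of 3 control and 3 *HOXA13* KH2 mESC cultures were analysed, grouped by their titles. The authors deposited raw counts per gene, 1 table per library, as whole numbers without normalization. The submitters' processing notes name bcl2fastq 2.17, TopHat2 2.0.14, HTSeq 0.6.1p1 and build mm9, while the methods name another TopHat version. The annotation, strand setting and treatment of reads with several places are not given in the sources used here.

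Counts were filtered with filterByExpr (minimum count 10, minimum total 15), normalized with TMM and tested with edgeR 4.0.16 (R 4.3.3), with glmQLFit and glmQLFTest, without covariates, at an adjusted p under 0.05. Log2 fold changes use a prior count of 0.125. Their SE was derived from the test, as the absolute log2 fold change over the square root of the quasi-likelihood F statistic. For the members the SE is thus part of the description and supports nothing. The code was tested on simulated data. Alternatives used DESeq2 1.42.0, limma-voom (limma 3.58.1), other scalings and filters, a replicate block and each library left out. Positions and exon lengths are from GENCODE on NCBIM37, with 22032 of 24393 features placed. Members and lists were chosen with earlier results of these data known. Named genes are the members, up to 4 per list by adjusted p with known partners, nearest neighbours, neighbours past the threshold, the 3 most alike per member and features with the on-off pattern of *Dppa1*.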

Additional observations from a re-analysis of the deposited data

How the results depend on the processing

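The Dppa genes were chosen on this contrast, so their values under other settings describe the fits and are no support. *Dppa1* has no value with at least 10 counts required in every library, because that filter removes it. *Dppa5a* ranged from 0.16 to 0.39 with each library left out and was past the threshold without control replicate 3 alone, so 4 to 5 members were past it. The number of genes past the threshold ranged from 2038 to 5007 with each library left out. With library size alone the mean of *HOXA13* libraries was 102.3 CPM for *Dppa4* and 287.8 CPM for *Dppa5a*. Adding the replicate number as a block gave 3172 genes past the threshold and changed the side of no Dppa gene. Same-numbered libraries did not deviate together (r of -0.014, -0.042 and 0.014 between their deviations from the group means), and no *HOXA13* library correlated best with the control library of its number, so the numbers are not taken to pair them.

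Signs reversed for *Kmt2b* with library size alone (-0.0658), without control replicate 1 (-0.00237) and without *HOXA13* replicate 2 (-0.00517), for *Dnmt1* without control replicate 1 (0.0220), for *Pou5f1* without control replicate 2 (0.0371), and for the *Dppa1* neighbours *Sgcd* with library size alone (-0.0388), without control replicate 1 (-0.178) and without *HOXA13* replicate 3 (-0.0755), *Havcr2* without *HOXA13* replicate 2 (0.0576) and *Med7* without control replicate 1 (0.0128). With each library left out, *Kmt2b* ranged from -0.00517 to 0.0258, *Dnmt1* from -0.0549 to 0.0220, *Pou5f1* from -0.107 to 0.0371, *Sgcd* from -0.178 to 0.203, *Havcr2* from -0.552 to 0.0576 and *Med7* from -0.147 to 0.0128. The cause was not tested. With each library left out, pluripotency genes past the threshold numbered 3 to 7 lower, COMPASS genes 1 to 3 higher and 0 to 3 lower, DNA methylation genes 2 to 4 lower, germ cell genes 0 to 1 lower, embryonic stem cell markers 1 to 3 higher and 1 to 2 lower, fibroblast genes 0 to 3 higher and 0 to 2 lower, primitive endoderm genes 1 to 2 higher and 1 to 4 lower, and mesendoderm genes 2 to 10 lower. With library size alone, 3 COMPASS genes, 1 germ cell gene and 1 fibroblast gene were lower and 1 embryonic stem cell marker was higher. Without a filter, 2 genes of the KH-domain list were higher (*Tle6* and *Khdc1a*), and with 10 counts in every library 2 mesendoderm genes were lower, against 0 with limma-voom. Fibroblast genes were 2 higher and 1 lower with the replicate block, 1 higher and 1 lower with DESeq2, and 1 lower with RLE size factors. Depth limits *Dppa1* in control libraries, where it lies under the floor, and the 2-cell-stage genes, of which 28 had at most 3 counts in every library.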
